A study of Mus musculus with 8 samples.

Results

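Oligodendrocyte precursor genes were followed in mouse cortex at E18.5, before birth, in 4 libraries labelled Upf2cKO and 4 control libraries. The 9 genes, out of 55487 in the deposited tables, were a named set and were matched by symbol: the transcription factors Olig1, Olig2, Sox10 and Nkx2-2, the receptors Pdgfra and Gpr17, the enzyme gene Cnp, and Matn4 and C1ql1, which encode secreted proteins. The embryos labelled Upf2cKO carried both floxed Upf2 alleles together with Emx1-Cre (Upf2 fl/fl;Emx1-Cre). Of the controls, 3 were Upf2 fl/fl and control 2 was Upf2 fl/+, and none carried the recombinase. Emx1-Cre is active in progenitors of the dorsal forebrain, the source of excitatory neurons and of part of the glia of the cortex, so cells that enter the cortex from elsewhere keep their floxed alleles. Upf2 acts in nonsense-mediated decay, the pathway that degrades transcripts with premature stop codons. Whether litters were shared is not given in the labels. The p-values set the difference between the groups against the spread among libraries of the same group. The genotype of control 2 sets it apart from the other controls, and otherwise that spread may be technical.

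Oligodendrocytes are the myelin-forming glia of the central nervous system. In the mouse forebrain their earliest precursors arise in the ventral germinal zones and migrate into the cortex, and later ones arise from cortical progenitors around birth. Precursors are set up by Olig1 and Olig2, divide in response to platelet-derived growth factor A through its receptor Pdgfra, pass through a committed stage marked by Gpr17, and then switch on the myelin genes under Sox10 and Nkx2-2. At E18.5 the cortex holds precursors, and myelination follows after birth.

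Olig1 and Olig2 are neighbours on chromosome 16 of mm10, both on the plus strand. Olig2 spans 91225457 to 91228677 and Olig1 spans 91269772 to 91271933, with 41094 bases between them. Pdgfra lies on the plus strand of chromosome 5 (75152292 to 75198215) and Cnp on that of chromosome 11 (100574904 to 100591729). C1ql1 is on the minus strand of chromosome 11 (102939264 to 102946688). Also on minus strands are Sox10 on chromosome 15 (79154908 to 79165240), and Nkx2-2 (147177546 to 147194243) and Matn4 (164389393 to 164405160) on chromosome 2. The sequences upstream of the start are shown for Olig2 and Pdgfra, the members past the test that have an entry in the RefSeq promoter table (build GRCm38.p6). Each sequence is 5′ to 3′ on the plus strand and ends before the annotated start of both RefSeq and GENCODE, at chr16:91225300-91225456 for Olig2 and chr5:75152001-75152250 for Pdgfra. Capitals mark CCAAT boxes, which read ATTGG here because they lie on the other strand.
Olig2: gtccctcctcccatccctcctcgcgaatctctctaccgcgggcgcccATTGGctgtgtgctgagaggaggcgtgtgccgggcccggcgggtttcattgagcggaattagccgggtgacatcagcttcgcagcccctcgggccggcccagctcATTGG
Pdgfra: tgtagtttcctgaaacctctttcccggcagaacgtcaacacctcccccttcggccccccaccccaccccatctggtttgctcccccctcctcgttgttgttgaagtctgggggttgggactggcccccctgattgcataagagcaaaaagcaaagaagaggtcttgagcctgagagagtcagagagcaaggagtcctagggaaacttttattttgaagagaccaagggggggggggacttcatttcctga
The 157 bases of Olig2 held 2 CCAAT boxes, a motif found on either strand in 21.0% of all promoter windows of that length. These windows, like the Olig2 stretch, were the 157 bases farthest from the RefSeq start among the 250 upstream of it. The 250 bases of Pdgfra held none, where 33.8% of windows of that length held at least 1. Neither sequence held the E-boxes CAGCTG or CATATG or the TATA box TATAAA, searched on both strands. CAGCTG was found in 7.86% of windows of 157 bases and in 13.0% of windows of 250 bases. CATATG was found in 2.42% and TATAAA in 7.55% of the shorter windows, and in 3.46% and 12.4% of the longer ones. The motifs do not overlap each other in these sequences, and a match or its absence is a description of these letters only.

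Levels are given as CPM, reads of a gene scaled to a common library total. By an estimate from the low values, the depth was 96.6 M to 139.4 M gene reads in Upf2cKO and 101.8 M to 156.0 M in controls, and 1 read was worth 0.0064 to 0.0104 CPM. Upf2 had 135, 139, 142 and 154 CPM in Upf2cKO 1 to 4, against 60.0, 58.1, 68.5 and 60.7 CPM in controls 1 to 4. This whole-gene total was higher in the libraries labelled Upf2cKO (log2 change 1.21, SE 0.0581, limma adjusted p = 3.35e-08). Reads of undeleted exons may be counted in it, so it does not serve as a check of deletion or labels, and every direction below is for the libraries so labelled. Emx1, a defining gene of the dorsal cortex, stood at 16.15 to 22.3 CPM in Upf2cKO and 27.6 to 33.0 CPM in controls. Upf2cKO 1 and, less so, control 1 held transcripts of mature brain. The summed level of 10 mature neuron genes was 756.5 CPM in Upf2cKO 1 and 141 to 146 CPM in the other Upf2cKO libraries, and 292.5 CPM in control 1 and 162 to 204 CPM in the other controls. Results are therefore given with and without these 2 libraries.

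All 9 members passed the filter of at least 0.5 CPM in at least 4 libraries. In Upf2cKO 4 of them fell (Olig1, Olig2, C1ql1 and Pdgfra), 0 rose and 5 did not pass the test. Of all 16573 genes tested, 26.3% were lower and 36.7% were higher in Upf2cKO, 63.0% in all. No member was higher at an unadjusted p under 0.05 either. With the replicate number as a block, 4 members were lower and 2 higher, Gpr17 and Nkx2-2. In that block fit 6126 of all genes were higher and 4423 lower. The median log2 change of the members was -0.20, against 0.040 over all genes tested. Without Upf2cKO 1 and control 1, again 4 members were lower and 0 higher, with a median of -0.16, but Cnp took the place of Pdgfra. In that fit 27.0% of all genes were lower and 36.0% higher. In bulk tissue, fewer cells of a type and less RNA per cell cannot be told apart, and this holds for every member.

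**Figure D1:**
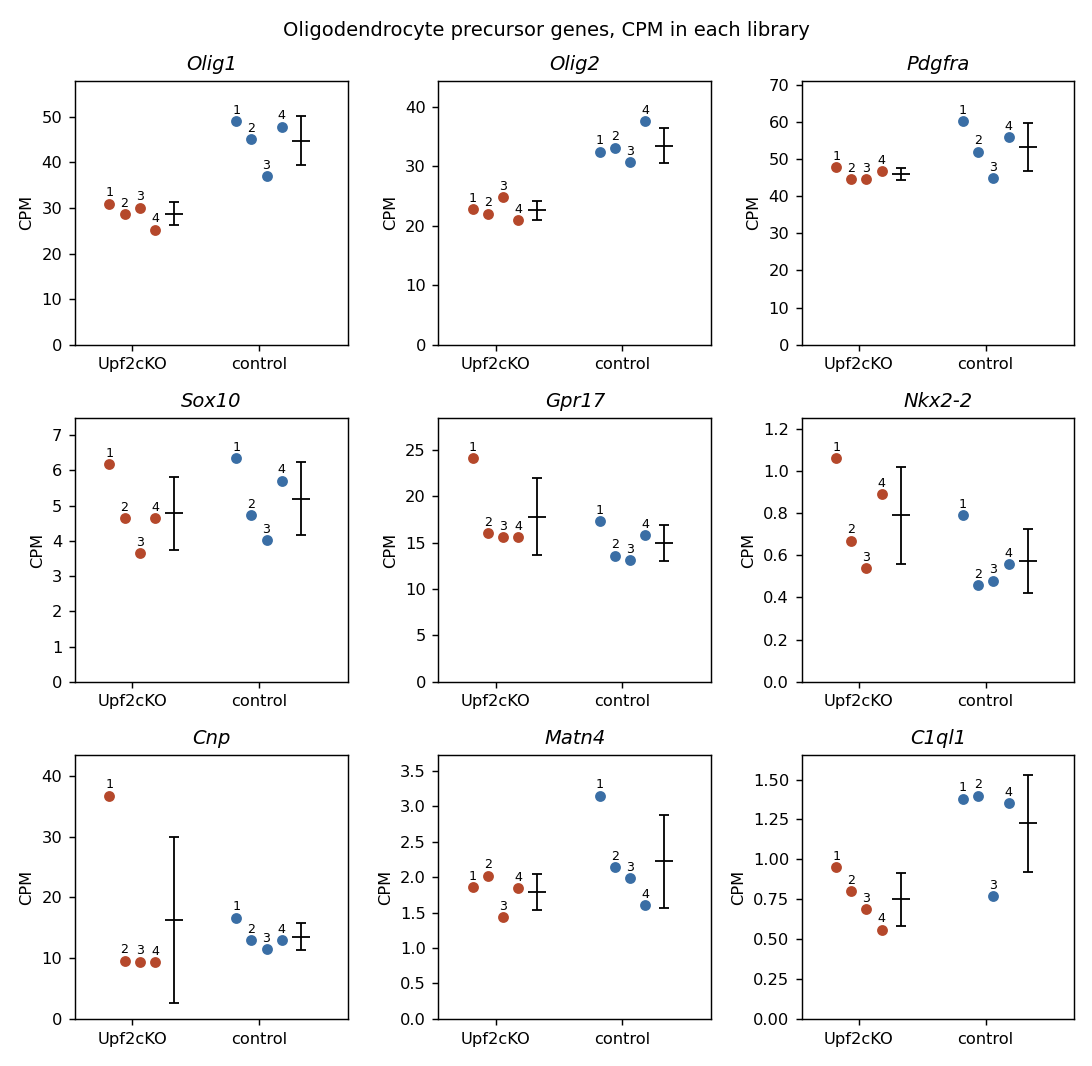
Level of each of the 9 oligodendrocyte precursor genes in CPM (vertical axes, from 0) in the 4 Upf2cKO libraries (red) and the 4 control libraries (blue), with the replicate number above each point and the mean and SD in black. The groups are apart for Olig1 and Olig2 and overlap for the other 7 genes, and Upf2cKO 1 stands at 36.8 CPM of Cnp and 24.1 CPM of Gpr17.

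Olig1 and Olig2, the basic helix-loop-helix factors that specify the lineage, fell to a similar degree. Olig1 had 31.0, 28.7, 30.1 and 25.2 CPM in Upf2cKO 1 to 4, against 49.1, 45.2, 37.1 and 47.9 CPM in controls 1 to 4. All 4 Upf2cKO libraries lay below all 4 controls, with control 3 the nearest. The means were 28.7 ± 2.52 CPM in Upf2cKO and 44.8 ± 5.40 CPM in controls (SD, n = 4 each), a 1.55-fold lower level on the log2(CPM + 0.1) scale (log2 change -0.63, SE 0.0925, limma adjusted p = 0.000143). Olig2 had 22.8, 22.0, 24.8 and 21.0 CPM in Upf2cKO 1 to 4, against 32.5, 33.1, 30.7 and 37.6 CPM in controls 1 to 4. Again the groups did not overlap, and the highest Upf2cKO library lay below the lowest control, control 3. The means were 22.6 ± 1.60 CPM in Upf2cKO and 33.5 ± 2.94 CPM in controls (SD, n = 4 each), a 1.48-fold lower level (log2 change -0.56, SE 0.0716, limma adjusted p = 5.44e-05). For both genes the exact two-sided permutation test gave p = 0.0286, the smallest that 70 arrangements of 4 against 4 libraries allow. The values of all Upf2cKO libraries lay below those of all controls in 2 of the 9 members, these 2, as in 22.3% of all genes tested. No member had all Upf2cKO libraries above all controls, as 34.3% of all genes had. Both genes kept their call in each fit that left out 1 library, with log2 changes of -0.72 to -0.57 for Olig1 and -0.60 to -0.50 for Olig2. Without Upf2cKO 1 and control 1 the changes were -0.62 (limma adjusted p = 0.000181) and -0.58 (limma adjusted p = 0.000132). Exons of Olig1 share 157 bases with a non-coding gene on the other strand, Gm15966, which had at most 0.05 CPM in any library.

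Sox10 and Nkx2-2, the factors that drive the later steps towards myelin, did not pass the test. Sox10 had 6.17, 4.64, 3.65 and 4.65 CPM in Upf2cKO 1 to 4, against 6.34, 4.73, 4.02 and 5.71 CPM in controls 1 to 4. In both groups the highest library was number 1 and the lowest number 3, and the groups overlapped almost fully. The ratio of Upf2cKO to control was 0.918, with a 95% interval of 0.705 to 1.2 (limma adjusted p = 0.553). Nkx2-2 had 1.06, 0.67, 0.54 and 0.89 CPM in Upf2cKO 1 to 4, against 0.79, 0.46, 0.48 and 0.56 CPM in controls 1 to 4. The Upf2cKO values reached higher, but Upf2cKO 3 lay below controls 1 and 4. The ratio was 1.31, with an interval of 0.939 to 1.83 (limma adjusted p = 0.140). The intervals of both genes include no change. Nkx2-2 shares 278 exonic bases with its antisense gene Nkx2-2os, which had at most 0.06 CPM.

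Pdgfra, the receptor for the main mitogen of the precursors, was slightly lower in Upf2cKO. It had 47.8, 44.7, 44.7 and 46.8 CPM in Upf2cKO 1 to 4, against 60.2, 52.1, 44.9 and 55.9 CPM in controls 1 to 4. The Upf2cKO libraries were close together, and control 3 stood among them while the other controls were higher. The means were 46.0 ± 1.55 CPM in Upf2cKO and 53.3 ± 6.50 CPM in controls (SD, n = 4 each), a 1.15-fold lower level (log2 change -0.20, SE 0.0784, limma adjusted p = 0.0411). The exact two-sided permutation test gave p = 0.0857. The call was lost without control 1 (limma adjusted p = 0.111), control 2 (0.0674), control 4 (0.106), Upf2cKO 2 (0.0873), Upf2cKO 3 (0.0913) or Upf2cKO 4 (0.0610). It was also lost without Upf2cKO 1 and control 1 together (limma adjusted p = 0.0761), on the deposited TPM, in which reads are also divided by gene length (0.158), and with no filter on low values (0.0753).

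Gpr17, a receptor of committed precursors that holds back their maturation, did not pass the test. It had 24.1, 16.0, 15.5 and 15.6 CPM in Upf2cKO 1 to 4, against 17.3, 13.6, 13.1 and 15.8 CPM in controls 1 to 4. Upf2cKO 1 was the highest of the 8 libraries, and the other 3 Upf2cKO libraries lay within the range of the controls. The ratio was 1.17, with a 95% interval of 0.941 to 1.46 (limma adjusted p = 0.185). Without Upf2cKO 1 and control 1 the log2 change was 0.15 (limma adjusted p = 0.114). Gpr17 shares 188 exonic bases with Lims2 on the other strand, which averaged 1.36 CPM.

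Cnp, the cyclic nucleotide phosphodiesterase of the myelinating lineage, gave a call that depended on 1 library. It had 36.8, 9.62, 9.44 and 9.42 CPM in Upf2cKO 1 to 4, against 16.7, 13.0, 11.6 and 13.0 CPM in controls 1 to 4. Upf2cKO 1 lay far above every other library, whereas the other 3 Upf2cKO libraries lay below all 4 controls. Over all 8 libraries the ratio was 0.994 with an interval of 0.552 to 1.79 (limma adjusted p = 0.986). Without Upf2cKO 1 the log2 change was -0.49 (limma adjusted p = 0.00170), and without both Upf2cKO 1 and control 1 it was -0.39, a 1.31-fold fall (SE 0.0735, limma adjusted p = 0.000811). The summed level of 18 mature myelin genes was likewise highest in the libraries numbered 1 of both groups, but in the others it was higher in Upf2cKO, where Cnp was lower. It was 569 CPM in Upf2cKO 1, 104.7 to 106.5 CPM in the other Upf2cKO libraries, 164 CPM in control 1 and 87.1 to 92.6 CPM in the other controls. Of its defining genes, Opalin, Aspa and Klk6 stood at 1.67, 1.93 and 0.12 CPM in Upf2cKO 1, and at most at 0.03, 0.11 and 0 CPM in the other Upf2cKO libraries and 0.22, 0.16 and 0.06 CPM in controls. Cnp shares 154 exonic bases with Dnajc7 on the other strand, which averaged 136 CPM, so the values of Cnp are uncertain to that extent.

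Matn4 and C1ql1 are genes of secreted proteins, a matrilin of the extracellular matrix and a relative of complement component C1q. Matn4 had 1.86, 2.02, 1.43 and 1.84 CPM in Upf2cKO 1 to 4, against 3.15, 2.14, 1.99 and 1.60 CPM in controls 1 to 4. Control 1 was the highest and the remaining libraries overlapped, with a ratio of 0.831 and an interval of 0.622 to 1.11 (limma adjusted p = 0.240). C1ql1 had 0.95, 0.80, 0.69 and 0.56 CPM in Upf2cKO 1 to 4, against 1.38, 1.40, 0.77 and 1.35 CPM in controls 1 to 4. Control 3 lay among the Upf2cKO libraries and the other 3 controls lay above them. C1ql1 fell 1.54-fold (log2 change -0.63, SE 0.209, limma adjusted p = 0.0229; exact two-sided permutation p = 0.0857). The call was lost without control 1 (limma adjusted p = 0.0601), control 2 (0.0653), control 4 (0.0622), Upf2cKO 3 (0.0528) or Upf2cKO 4 (0.0644), and with no filter on low values (0.0612). With a pseudocount of 1 CPM its log2 change was -0.34 (limma adjusted p = 0.0204).

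**Figure D2:**
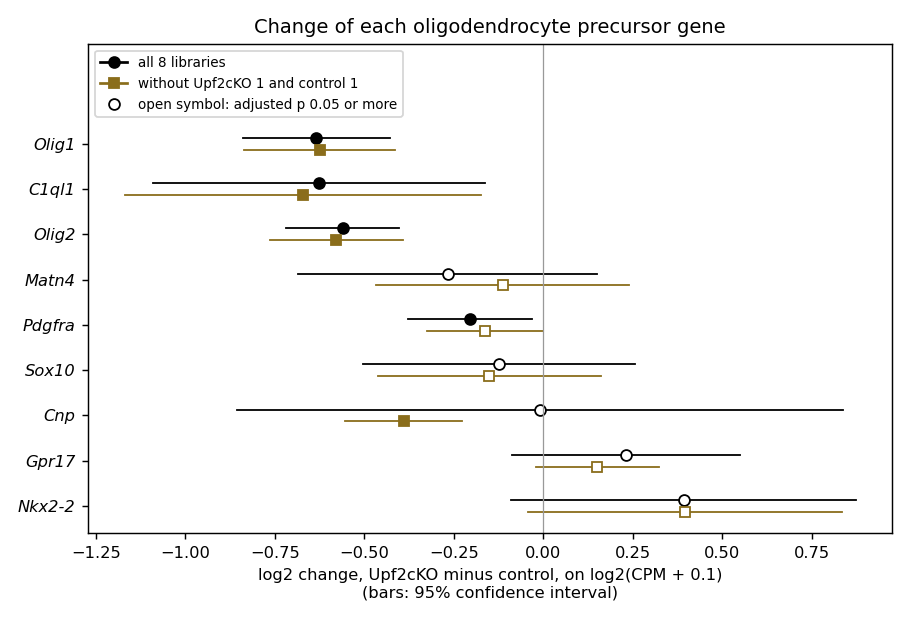
Log2 change of each gene, Upf2cKO minus control (horizontal axis, log2(CPM + 0.1) scale), with 95% confidence intervals, from all 8 libraries (black circles) and without Upf2cKO 1 and control 1 (brown squares); filled symbols passed the limma test. Olig1, Olig2 and C1ql1 passed in both fits, Pdgfra with all libraries only, and Cnp only without the pair, where its interval is narrower.

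Ratios within a library do not depend on how libraries are scaled. Levels are compared here as TPM, which are per length. Gpr17 over Olig2 was 0.514, 0.354, 0.306 and 0.362 in Upf2cKO 1 to 4, against 0.260, 0.200, 0.208 and 0.205 in controls 1 to 4. Every Upf2cKO library lay above every control, also among the libraries numbered 2 to 4. Olig2, the divisor, was itself lower in every Upf2cKO library than in any control, and Gpr17 alone did not pass (limma adjusted p = 0.185). The ratio therefore also holds the fall of Olig2, and the share of all genes with such a separation was not computed. Olig1 over Olig2 was 1.41 to 1.59 in Upf2cKO and 1.41 to 1.77 in controls, and the groups overlapped. Pdgfra over Olig2 was 0.456 to 0.563 in Upf2cKO and 0.370 to 0.469 in controls, with only control 1 inside the Upf2cKO range. Sox10 over Olig2 was 0.122 to 0.225 in Upf2cKO and 0.109 to 0.162 in controls. The ratios of Nkx2-2, Cnp, Matn4 and C1ql1 to Olig2 overlapped as well. These ratios are a description, and no test was made on them.

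**Figure D3:**
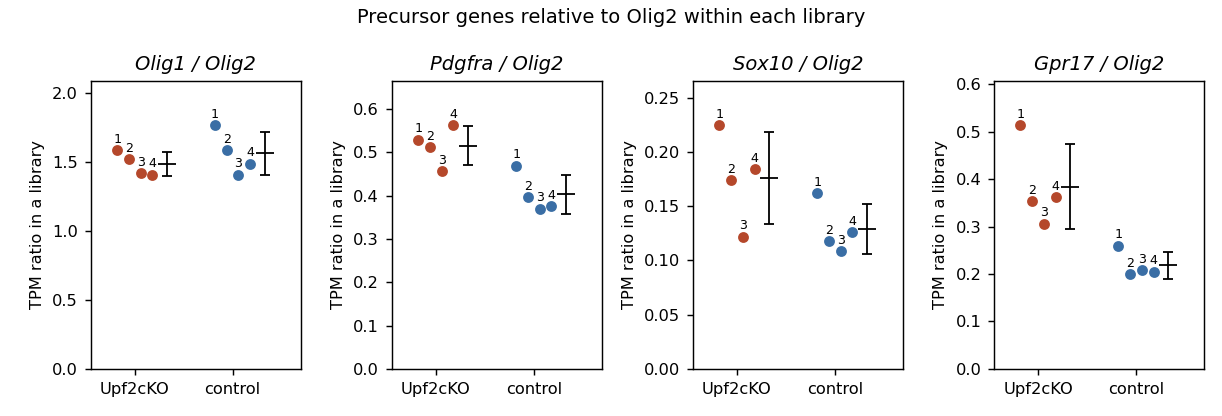
TPM of Olig1, Pdgfra, Sox10 and Gpr17 divided by the TPM of Olig2 in the same library (vertical axes, from 0), for Upf2cKO (red) and control (blue) libraries, with replicate numbers and the mean and SD in black. Gpr17 over Olig2 is 0.306 to 0.514 in Upf2cKO and 0.200 to 0.260 in controls, and the other 3 ratios overlap. Olig2 itself is lower in Upf2cKO.

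By mean TPM the order of the members was the same in both groups, with the place of Cnp in Upf2cKO resting on 1 library. Olig1 was highest at 54.9 ± 4.71 TPM in Upf2cKO and 82.0 ± 9.60 TPM in controls, followed by Olig2 at 37.0 ± 2.84 TPM in Upf2cKO and 52.3 ± 4.01 TPM in controls (SD, n = 4 each). Pdgfra had 19.0 ± 0.607 TPM in Upf2cKO and 21.1 ± 2.55 TPM in controls. Cnp came next at 18.47 ± 15.3 TPM in Upf2cKO and 14.8 ± 2.48 TPM in controls, and Gpr17 at 14.1 ± 3.22 TPM in Upf2cKO and 11.4 ± 1.52 TPM in controls. In Upf2cKO 1 Cnp had 41.4 TPM and Gpr17 19.0 TPM, whereas in Upf2cKO 2 to 4 Cnp had 10.76 to 10.86 TPM and lay below Gpr17, at 12.45 to 12.61 TPM. In each of the 4 controls Cnp lay above Gpr17, at 12.7 to 18.4 TPM against 10.1 to 13.4 TPM. Sox10 had 6.46 ± 1.36 TPM in Upf2cKO and 6.75 ± 1.33 TPM in controls, and C1ql1 had 2.10 ± 0.450 TPM in Upf2cKO and 3.29 ± 0.806 TPM in controls. Matn4 had 1.43 ± 0.188 TPM in Upf2cKO and 1.71 ± 0.522 TPM in controls. Nkx2-2 was lowest at 1.13 ± 0.322 TPM in Upf2cKO and 0.788 ± 0.208 TPM in controls, and did not differ from Matn4 beyond the spread in Upf2cKO. Within groups, number 1 was the highest library for 7 of the 9 members in Upf2cKO and for 7 in controls, and control 3 was the lowest control for 7.

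Profiles over the 8 libraries were compared as the root mean square difference of mean-centred log2(CPM + 0.1) values. Olig1 and Olig2 were the most alike pair of members, at 0.105, followed by Olig1 and C1ql1 at 0.175, Pdgfra and Sox10 at 0.181, and Gpr17 and Nkx2-2 at 0.200. Among other genes with a mean of at least 1 CPM, Rps21 was nearest to Olig2 (0.0372), Dctpp1 to Olig1 (0.0726), Tmem256 to Pdgfra (0.0591), Msantd1 to Sox10 (0.0936) and Ckmt1 to Gpr17 (0.0659). Pcsk1 was nearest to Nkx2-2 (0.116), Kcnab2 to Cnp (0.0629), Gm38299 to Matn4 (0.128) and Rprml to C1ql1 (0.137). The mean profile of the members was nearest to Tmem196 (0.0466), Stim1 (0.0573), Ajap1 (0.0593), Sash1 (0.0659) and Dmtn (0.0691).

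Further genes of precursors and committed precursors fell more often than they rose. Of 26 such genes 24 were tested, 10 fell, 2 rose and 12 did not pass, with a median log2 change of -0.14. Over all genes tested, 26.3% were lower and 36.7% higher. On TPM 8 fell and 2 rose, and without Upf2cKO 1 and control 1, 9 fell and 2 rose. The growth factor receptor Egfr had 20.2 ± 0.667 CPM in Upf2cKO and 35.0 ± 2.87 CPM in controls (SD, n = 4 each; 1.725-fold lower, limma adjusted p = 1.46e-06). The proteoglycan Cspg5 had 95.1 ± 8.60 CPM in Upf2cKO and 152 ± 10.1 CPM in controls (1.60-fold lower, limma adjusted p = 9.85e-06). Sox8, a factor related to Sox10, had 11.7 ± 2.56 CPM in Upf2cKO and 19.9 ± 1.48 CPM in controls (1.72-fold lower, limma adjusted p = 0.000306), and Rlbp1, a retinoid-binding protein gene, was 1.27-fold lower. The rises were small, in the endocytic adaptor Epn2 (1.14-fold) and in Sox6 (1.08-fold), a factor that keeps precursors immature. Cspg4, which encodes the precursor surface proteoglycan NG2, had 20.9 ± 2.37 CPM in Upf2cKO and 20.7 ± 1.39 CPM in controls (limma adjusted p = 0.946), and Lhfpl3 had 8.19 CPM in Upf2cKO and 7.90 CPM in controls (limma adjusted p = 0.689). Egfr, Cspg5, Rlbp1 and Ptprz1 (1.202-fold lower) are also genes of radial glia or astrocytes, and 10 of 11 dorsal radial glia genes were lower and 0 higher in both fits, with a summed level of 2016 to 2207 CPM in Upf2cKO and 2674 to 2713 CPM in controls. Cspg4 is also a gene of pericytes and mural cells. The part of all these cells in the result was not tested. Sox8, Cspg4 and Lhfpl3 were named after their values were seen.

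Of 12 genes of premyelinating oligodendrocytes 10 were tested, 3 fell and 0 rose, a share of falls near the 26.3% of all genes. Without Upf2cKO 1 and control 1, 3 fell and 1 rose. With all libraries, those that fell were the GTPase Rras2 (1.24-fold), the kinase Fyn (1.16-fold) and the Wnt effector Tcf7l2 (1.198-fold), all of which neurons also express. Without the pair Tcf7l2 did not pass (limma adjusted p = 0.0659), Gpr37 passed as lower and Tmem163 as higher (1.14-fold, limma adjusted p = 0.0437). Bcas1, a marker of newly forming oligodendrocytes, had 11.5 CPM in Upf2cKO 1, 1.84 to 2.45 CPM in the other Upf2cKO libraries and 1.94 to 3.71 CPM in controls. Gpr37, a receptor of maturing oligodendrocytes, had 8.75 CPM in Upf2cKO 1 and 3.18 to 3.78 CPM in the other Upf2cKO libraries, against 5.98 to 7.65 CPM in controls. Its log2 change was -0.65 with all libraries (limma adjusted p = 0.0555) and -0.93 without Upf2cKO 1 and control 1 (limma adjusted p = 1.94e-05). Bcas1, Gpr37 and Tmem163 were named after their values were seen.

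The myelin genes split in direction once the libraries with mature brain transcripts were left out. With all libraries, 14 of 18 were tested, 4 were higher and 1 lower, with a median log2 change of 0.53. Over all genes tested, 36.7% were higher and 26.3% lower. Without Upf2cKO 1 and control 1, 5 were higher and 4 lower, with a median of 0.053. Mog, a glycoprotein of the outer myelin surface, had 31.4 to 32.8 CPM in the Upf2cKO libraries, against 18.3 to 22.0 CPM in the controls. It was 1.63-fold higher (limma adjusted p = 2.61e-06) and Upf2cKO 1 did not stand apart. Mbp, myelin basic protein, had 225, 16.6, 17.8 and 16.1 CPM in Upf2cKO 1 to 4, against 65.5, 34.0, 28.6 and 32.3 CPM in controls 1 to 4. Its 3 Upf2cKO libraries numbered 2 to 4 lay below every control, with a log2 change of -0.91 without the pair (limma adjusted p = 1.52e-06) and -0.23 with all libraries (limma adjusted p = 0.800). Mbp was named after its values were seen.

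**Figure D4:**
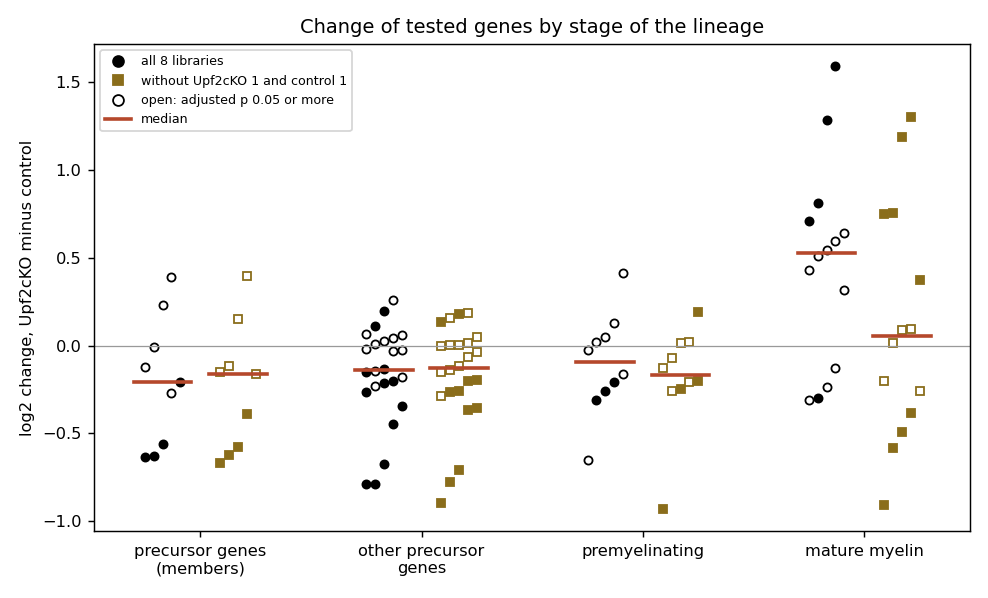
Log2 change, Upf2cKO minus control (vertical axis), of every tested gene in the 9 members and in lists of other precursor, premyelinating and mature myelin genes, from all 8 libraries (black) and without Upf2cKO 1 and control 1 (brown); filled symbols passed the limma test and red lines are medians. The median of the mature myelin genes is 0.53 with all libraries and 0.053 without the pair.

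Signals that act on precursors changed in both directions. Of 29 ligands and receptors 26 were tested, 6 were higher and 11 lower, with a median log2 change of -0.11. Over all genes tested, 36.7% were higher and 26.3% lower. On TPM 8 were lower, and without Upf2cKO 1 and control 1, 6 were higher and 12 lower. Pdgfa, the ligand of Pdgfra, had 12.07, 11.95, 10.8 and 11.2 CPM in Upf2cKO 1 to 4, against 14.2, 13.1, 12.9 and 13.0 CPM in controls 1 to 4, and fell 1.15-fold without overlap (limma adjusted p = 0.0132). It shares 813 exonic bases with an antisense gene that averaged 7.88 CPM, so its value is uncertain to that extent. Pdgfc, another ligand of the receptor, fell 1.44-fold (limma adjusted p = 0.00104), and Pdgfb did not pass (limma adjusted p = 0.365). Igf1, a growth factor for the lineage, was 2.79-fold higher, at 15.1 ± 1.90 CPM in Upf2cKO and 5.41 ± 1.19 CPM in controls (SD, n = 4 each; limma adjusted p = 6.97e-06). The neuregulin receptor Erbb4 was 1.63-fold and Fgfr3 1.31-fold higher, whereas Fgfr1 was 1.53-fold, Lingo1, which restrains myelination, 1.42-fold and the phosphatase Ptprz1 1.202-fold lower. Which cells carried Igf1 and Erbb4 was not tested. Most tested genes of the microglial list and of the ventral forebrain and interneuron list were higher too. Shh, the ligand that induces Olig2 in the ventral forebrain, was too low to test at 0.13 to 0.43 CPM in Upf2cKO and 0.11 to 0.27 CPM in controls. Pdgfa, Pdgfb, Pdgfc and Shh were named as ligands after their values were seen.

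Of 30 transcription factors and chromatin regulators that promote or hold back the lineage, 7 were higher and 13 lower, with a median log2 change of -0.038. Over all genes tested, 36.7% were higher and 26.3% lower. The counts were 8 higher and 11 lower without Upf2cKO 1 and control 1. Etv5, an effector of growth factor signalling, was 1.64-fold lower, at 56.7 ± 4.84 CPM in Upf2cKO and 92.8 ± 4.86 CPM in controls (SD, n = 4 each; limma adjusted p = 3e-06). Id2, an inhibitor that binds the partners of Olig factors, was 1.50-fold lower (limma adjusted p = 9.48e-06) and Tcf4, such a partner, 1.28-fold lower (limma adjusted p = 5.52e-05). Dlx1 (1.47-fold) and Dlx2 (1.51-fold), which favour interneuron over oligodendrocyte fate in the ventral forebrain, were higher, as was the histone methyltransferase Ezh2 (1.48-fold). Dlx1 shares 335 exonic bases with its antisense gene Dlx1as, and Dlx1 and Dlx2 are also in the ventral forebrain list.

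Cells other than precursors can carry the members too, and their markers were read beside them. For comparison, 36.7% of all genes tested were higher and 26.3% lower. Without Upf2cKO 1 and control 1 these shares were 36.0% and 27.0%. Olig2 and Nkx2-2 are also active in ventral germinal zones. Of 12 ventral forebrain and interneuron genes 10 were tested, 9 were higher and 0 lower, with a summed level of 529.7 to 634.5 CPM in Upf2cKO and 350.0 to 396.4 CPM in controls. The counts were 9 higher and 1 lower without Upf2cKO 1 and control 1. Nkx2-1, the defining gene of the medial ganglionic eminence, had 0.96 to 1.44 CPM in Upf2cKO and 0.58 to 0.82 CPM in controls, Lhx8 had at most 0.06 CPM in any library, and Gsx2 did not pass with all libraries (log2 change -0.52, limma adjusted p = 0.0824). Without the pair Gsx2 was the gene that fell (log2 change -0.81, limma adjusted p = 0.00605). These genes were named after their values were seen. Pdgfra is active in meningeal fibroblasts, whose 10 genes summed to 20.6 to 24.8 CPM in Upf2cKO and 15.2 to 17.7 CPM in controls, with 1 of 7 tested genes higher and 1 lower, and 1 higher and 0 lower without the pair. The higher one, Dcn, stood at 7.49 to 11.5 CPM in Upf2cKO and 2.15 to 3.34 CPM in controls. Sox10 is active in peripheral glia, whose 8 genes summed to 6.87 to 7.42 CPM in Upf2cKO and 4.13 to 4.93 CPM in controls, without overlap. Of 3 tested, 2 were higher and 0 lower in both fits, Prx (1.497-fold with all libraries) and Ncmap (3.89-fold without the pair). Of its defining genes, Pmp2 and Foxd3 each stood at most at 0.01 CPM in any library. The part of these cells in the members' values was not tested.

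**Figure D5:**
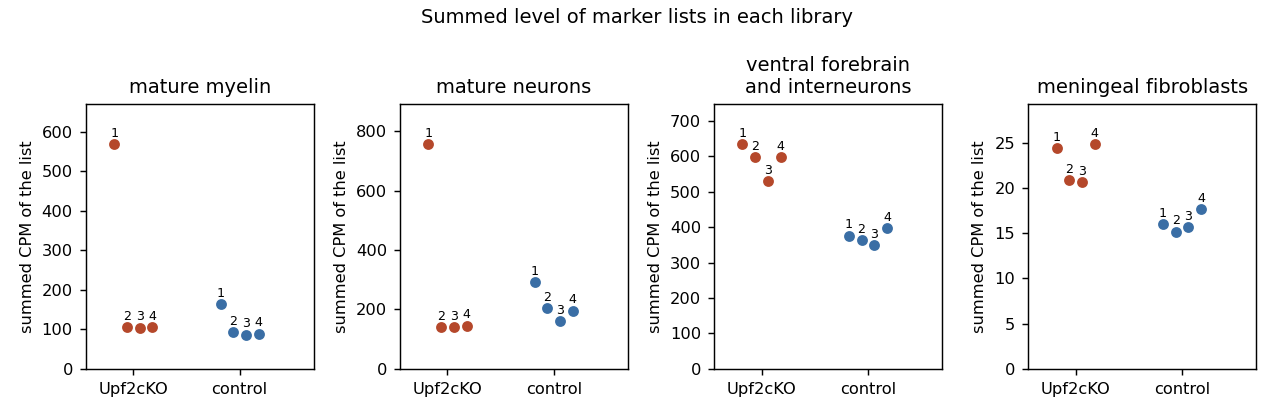
Summed CPM (vertical axes, from 0) of 4 marker lists in each Upf2cKO (red) and control (blue) library, with replicate numbers. The mature myelin sum is 569 CPM in Upf2cKO 1 and 104.7 to 106.5 CPM in the other Upf2cKO libraries, and the ventral forebrain and meningeal sums are higher in all Upf2cKO libraries than in all controls. Of 7 meningeal genes tested, 1 was higher, Dcn, and 1 lower, against 36.7% and 26.3% of all genes tested.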

How the data were processed

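Polyadenylated RNA of E18.5 mouse cortex was sequenced in 8 libraries. Per the submitters' processing notes, the tools were STAR 2.7.11a, fastp 0.23.4, DESeq2, MultiQC 1.25 and Picard 3.1.1, with the build mm10. The sources used here do not name the program that counted reads, its strand setting or its annotation, so reads of overlapping genes cannot be told apart. The authors deposited CPM (reads scaled to the same total in each library) and, in addition, the authors deposited TPM (also divided by gene length), both with 2 decimals. Low values of short genes move in steps of 1 read, and the depth was chosen by how near these values came to whole reads. At that depth 100.0% were whole within 0.15 reads, where a depth set without them gives 30% by chance. Because the same values set the depth, this is no separate check. Because 2 decimals are close to 1 read, no count test was run.

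The 16573 genes that reached 0.5 CPM in 4 or more libraries entered a two-sided test by limma 3.58.1 in R 4.3.3, with a trend over mean level, on log2(CPM + 0.1), with Benjamini-Hochberg adjustment over all of them and a threshold of 0.05. The fit was also run on simulated data with few changed genes, a spread set alike for every gene and no outlying library. Because these data differ in each of these points, that run does not give the error rate here. Symbols and coordinates are from GENCODE M21 (55227 of 55487 identifiers matched). Promoter sequences matched 5 of the 9 members. The CCAAT and TATA motifs were chosen after an earlier motif was found in neither printed sequence.

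The members and lists were chosen with earlier results of these data known. The genes named are the members, Upf2, up to 3 per direction with the smallest p from each lineage list, the most abundant gene of each cell type list, overlapping genes and the nearest profiles. Further genes named for a role, and single libraries of marker genes, were chosen after their values were seen. The replicate numbers were not taken as pairs. Some genes of the lists are not reported here by name.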

Additional observations from a re-analysis of the deposited data

Results flagged for a closer look

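Of 20 groups of 4 libraries screened (9 members and Upf2 in each genotype), 3 held a library far from the rest, where chance gives about 1 in 20. Cnp stood at 36.8 CPM in Upf2cKO 1, with the gap to the next library making up 0.993 of the range of the group, above the critical value of the Dixon test. Gpr17 stood at 24.06 CPM in Upf2cKO 1, with a share of 0.945. C1ql1 stood at 0.77 CPM in control 3, with a share of 0.921. Upf2cKO 1 also held the highest summed level of mature myelin genes, 569 CPM, and the part of these transcripts in the values of Gpr17 was not tested.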

How the results depend on the processing

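Of 422 values recomputed under other settings, 363 kept their direction and side of the threshold, or stayed within 1.5 times for counts. The median log2 change of the members counted as kept if it moved by less than 0.143, its SD between Upf2cKO libraries. By this rule the median of -0.091 without control 1 was kept, against -0.20 with all libraries. Olig1, Olig2 and Upf2 kept their calls under every setting run. With no filter on low values, 2 members were lower, and Pdgfra (log2 change -0.20) and C1ql1 (-0.63) no longer passed. More genes, 37053, entered the adjustment in that fit, and 4141 of them were lower and 7515 higher. Pdgfra also no longer passed on TPM (-0.14) and without Upf2cKO 1 and control 1 (-0.16). Cnp turned to 0.00336 with a pseudocount of 1 CPM and to 0.052 on TPM, far from the threshold, and passed as lower without Upf2cKO 1 and control 1 (-0.39), also with the replicate block (-0.39). Leaving out 1 library at a time gave 2 to 5 members lower and 0 higher. In these fits 3886 to 4661 of all 16573 genes were lower and 5747 to 5999 higher. The log2 changes were -0.28 to -0.14 for Pdgfra, -0.49 to 0.16 for Cnp and -0.82 to -0.51 for C1ql1. Deviations of same-numbered libraries correlated at 0.0519 to 0.523, not all over 0.1, and 5 of 8 libraries correlated best with their own number. Whether the numbers mark pairs is not given in the labels and is not settled by these values. With the replicate block, 2 members were higher, Gpr17 (0.23, limma adjusted p = 0.0322) and Nkx2-2 (0.39, limma adjusted p = 0.0453). In that fit 6126 of all genes were higher and 4423 lower. A filter of 2 CPM removed Nkx2-2, Matn4 and C1ql1. Of all genes, 6712 were higher and 3368 lower on TPM, and 5487 and 5257 after median-of-ratios rescaling, against 6082 and 4359. The cause of these changes was not tested.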

Other observations

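The remaining cell type lists are given as values. Counts without Upf2cKO 1 and control 1 follow those with all libraries. They are to be read beside the shares of all genes tested, 36.7% higher and 26.3% lower with all libraries. Without the pair these shares were 36.0% and 27.0%. Of 9 microglial genes, 6 were higher and 0 lower in Upf2cKO with all libraries, and 6 higher and 1 lower without the pair, the lower one being Tmem119 (log2 change -0.68, limma adjusted p = 0.00589). Their sum was 141 to 199 CPM in Upf2cKO and 77.8 to 93.3 CPM in controls, and the most abundant gene, Sall1, did not pass (limma adjusted p = 0.341). Of 8 endothelial genes 7 were lower and 0 higher in both fits, among them the transporter gene Slco1c1 (1.22-fold), and of 8 tested pericyte genes 3 were lower and 0 higher in both fits, among them Rgs5 (1.245-fold). Of 10 tested astrocyte genes 2 were lower and 1 higher, and 6 lower and 1 higher without the pair, where the median log2 change was -0.35, against -0.13 with all libraries. Their sum was 1038 CPM in Upf2cKO 1 and 495 to 532 CPM in the other Upf2cKO libraries, against 664 to 812 CPM in controls. Sparcl1, the most abundant astrocyte gene on average, was 1.51-fold lower. Of 8 tested striatal genes 4 were lower and 0 higher, and 5 lower and 0 higher without the pair, among them Rgs9 (1.44-fold). Of 9 tested genes of mature neurons 2 were lower and 0 higher, and 3 lower and 0 higher without the pair. Camk2a stood at 339 CPM in Upf2cKO 1 and passed as lower without the pair (log2 change -0.35, limma adjusted p = 0.00321). None of the 3 tested choroid plexus genes passed (0 by limma, 1 at an unadjusted p under 0.05), and Ttr stood at 258 CPM in Upf2cKO 4 and 119 CPM in control 4.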
